A study of Schizosaccharomyces pombe with 2 samples.

Results

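The right end of chromosome II of the fission yeast Schizosaccharomyces pombe was examined for BrdU incorporation in hydroxyurea. It was taken as every chromosome II tile of the array whose named position is 4410900 or higher on both arrays, a rule that uses position only. These were 307 of 41251 chromosome tiles, the last at 4510500, and together they spanned 99.9 kb. One array each came from sap1-1, a strain with a mutant allele of sap1, and from a strain called wild-type. Both strains had the 972h background and carried cdc10-v50, an allele of a G1/S transcription factor subunit used here to hold cells before S phase. Both also carried Pnmt1-TK and Padh1-hENT, which let the cells phosphorylate and take up thymidine analogues, so neither strain is unmodified fission yeast. Cells of both strains were kept at 35 °C for 4 h and then returned to 26 °C with 10 mM hydroxyurea and 200 µM BrdU, before fixation with 0.1% sodium azide.

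Fission yeast chromosome ends carry telomere repeats bound by the shelterin complex, and inward of these lie heterochromatin and then subtelomeric DNA rich in genes for nutrient uptake and cell surface proteins. Origins of replication in this yeast sit mainly in AT-rich stretches between genes, and subtelomeric origins are known to be held back by the telomere proteins Taz1 and Rif1. Hydroxyurea inhibits ribonucleotide reductase, so forks stall soon after initiation and BrdU, a thymidine analogue, marks DNA near origins that fired. The essential DNA-binding protein Sap1 is known for stopping replication forks at a barrier in the rDNA and for its part in mating-type switching.

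The value given throughout is the log2 ratio of immunoprecipitated DNA (Cy5) over whole-cell extract DNA (Cy3, the input), with the array median at 0. A ratio of 1 is thus 2-fold above the array median, and a difference (sap1-1 minus wild-type) of -1 is a 2-fold lower ratio in sap1-1. With 1 array per strain there is no replicate and no test. Errors are the scatter of tiles within an array, and strain cannot be told apart from culture, immunoprecipitation or array. No tile of this end was flagged, saturated or at background. The median Cy5 signal of the 307 tiles was 1100 on the sap1-1 array and 2005 on the wild-type array, and the median Cy3 signal was 825 and 920. Single tiles were rougher on the sap1-1 array, where the steps between neighbouring tiles had an SD of 1.04, against 0.53 in wild-type. Tiles stood 300 bp apart, with 11 wider gaps, the widest 3300 and 1800 bp beside a Tf2 retrotransposon near the inner limit. Gene names come from RefSeq, placed on the tiles to within about 1 tile. The last tile starts 31.1 kb before the end of the reference chromosome, so the telomere repeats and 3 protein-coding genes, among them tlh2 (a telomere-linked RecQ helicase gene), lay beyond the tiles.

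BrdU at this end was lower in sap1-1 over almost the whole length. The median ratio of the 307 tiles was 0.52 in sap1-1 (quartiles -0.21 and 1.08, SD 1.13), against 1.39 in wild-type (quartiles 0.89 and 1.88, SD 0.77). The highest and lowest single tiles were 3.18 and -3.15 in sap1-1, against 3.47 and -0.81 in wild-type. On the chromosome arms the lowest tile was also lower in sap1-1. The highest and lowest tiles there were 4.42 and -5.07 in sap1-1, against 4.07 and -3.87 in wild-type. The median difference was -0.89 (quartiles -1.41 and -0.42, SD 0.83). Of the 307 tiles, 285 (92.8%) were lower in sap1-1, where 55.8% of all chromosome tiles were. A ratio lower by 2-fold or more was seen at 138 tiles (45.0%), against 17.1% of all chromosome tiles. A ratio higher by 2-fold or more was seen at 3 tiles (0.977%), against 10.3%. These 3 tiles, singled out after their values were seen, were 4410900 and 4411200 in gmh6, which crosses the inner limit, and 4455900 just beyond fub2. Centring on the mode of each array, which moves the centre by 0.063 in sap1-1 and by -0.62 in wild-type, took the median difference to -1.58 and the tiles 2-fold lower to 247. This centring lowers the difference of every tile of the genome by the same amount. The share of all chromosome tiles 2-fold lower under it is not given here.

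In wild-type this end was labelled nearly throughout, and in sap1-1 part of it stood below the array median. Tiles below 0 numbered 93 (30.3%) in sap1-1 and 11 (3.58%) in wild-type, against 50.3% of all chromosome tiles on either array. Both shares at this end were thus below those of the whole genome. After averaging tiles within 500 bp, 81 tiles (26.4%) reached 1 in sap1-1, against 19.9% of all chromosome tiles on that array. In wild-type 223 tiles (72.6%) did, against 23.6% on that array. The share of this end above the threshold was thus near that of the whole genome in sap1-1 and well above it in wild-type.

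**Figure D1:**
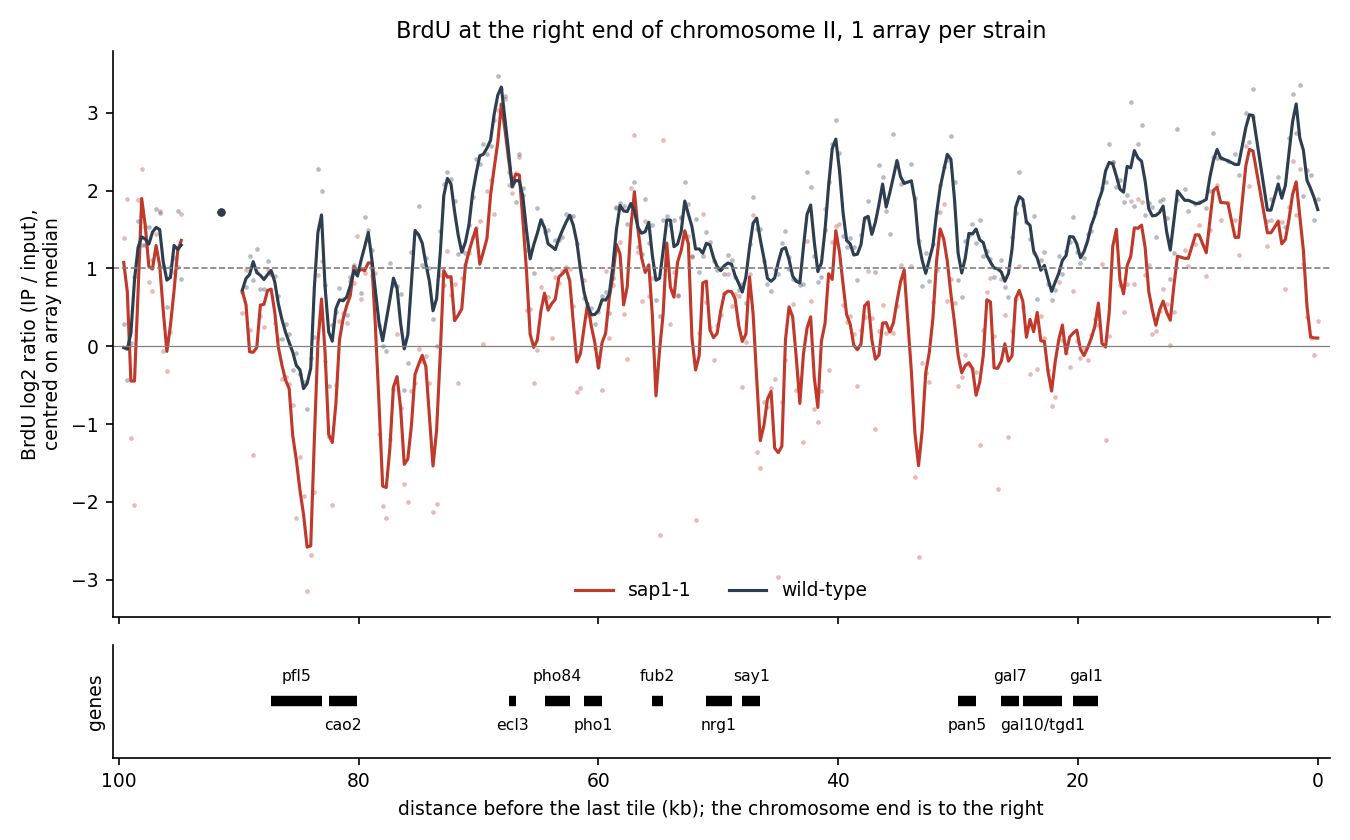
BrdU log2 ratio (vertical axis, centred on the array median) against distance before the last tile (horizontal axis, kb), for sap1-1 (red) and wild-type (blue), 1 array each. Points are tiles, lines are averages within 500 bp (a lone dot is 1 tile between 2 gaps, where the strains coincide), the dashed line marks 1, and black bars below are the spans of tiles in genes with a symbol. The lines run close together at about 68 kb (3.11 in sap1-1 and 3.33 in wild-type) and lie apart from 15 to 47 kb.

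The input did not differ to a like extent. Its median, relative to each array's own median, was -0.15 in sap1-1 and -0.20 in wild-type, and the tile by tile difference had a median of 0.037 (SD 0.22). Input levels of the 307 tiles correlated between arrays with r = 0.990, across tiles that share sequence and GC content. The immunoprecipitated channel alone, centred in the same way, gave a median of 0.32 in sap1-1 and 1.12 in wild-type, a difference of -0.86. The lower ratio in sap1-1 therefore lay in Cy5. The ratio difference did not follow GC content (r = -0.0409 across tiles) or input level (r = 0.0516), while each strain's ratio by itself was higher at AT-rich tiles (r with GC of -0.40 in sap1-1 and -0.55 in wild-type).

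The difference was present in all 5 bins of 20 kb. Its median was most negative 20 to 40 kb from the last tile, but without repeated tiles the outermost bin, where 47 of 57 tiles are repeated, was more negative (-1.36, against -1.22 from 20 to 40 kb). In the outermost 20 kb the median ratio was 1.05 in sap1-1 and 1.99 in wild-type, with a median difference of -0.89, and 25 of 57 tiles were 2-fold lower. From 20 to 40 kb the medians were 0.20 in sap1-1 and 1.39 in wild-type (difference -1.21), and 45 of 66 tiles were 2-fold lower. This bin holds pan5 and most of the galactose genes, and all of its 66 tiles were lower in sap1-1. From 40 to 60 kb the medians were 0.56 in sap1-1 and 1.18 in wild-type (difference -0.71), with 28 of 66 tiles 2-fold lower. From 60 to 80 kb they were 0.65 in sap1-1 and 1.37 in wild-type (difference -0.77), with 28 of 67. From 80 to 100 kb they were 0.33 in sap1-1 and 0.79 in wild-type (difference -0.52), with 12 of 51. The innermost bin was thus the one with the least BrdU in wild-type and the smallest difference. The tile SD of the difference was between 0.58 and 0.99 within these bins, so the bins overlap widely in their single tiles.

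Finer bins of 10 kb showed that the difference did not decline steadily with distance. The most negative were 40 to 50 kb from the last tile, at a median of -1.32, and 30 to 40 kb, at -1.27. Between 50 and 70 kb, where pho84, pho1, ecl3 and fub2 lie, the bins stood at -0.64 and -0.62. The bin from 70 to 80 kb, which holds the genes SPBC8E4.03 to SPBC8E4.05c, was again at -1.26. The innermost bin, from 90 to 100 kb, was at -0.25 with 10 of 18 tiles lower, about the share in all chromosome tiles (55.8%). Just inside the limit the tile values swung widely in sap1-1, at 1.40, 1.89, -1.18 and -2.05 over 4 neighbouring tiles, against 0.28, -0.44, 0.04 and 0.90 in wild-type.

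**Figure D2:**
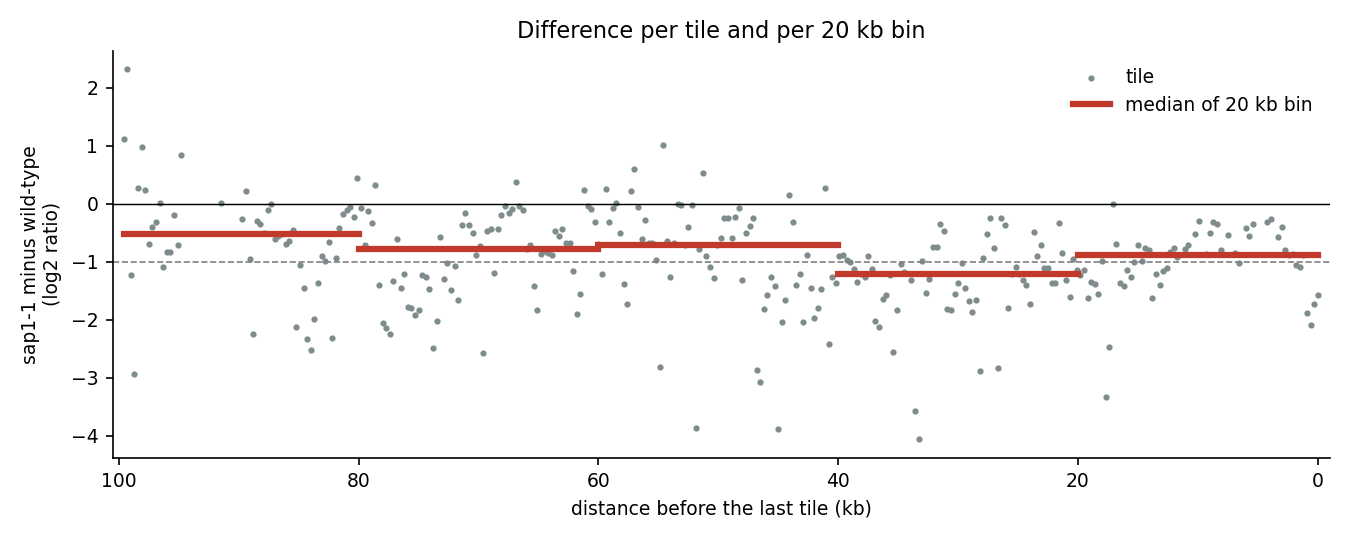
Difference in BrdU log2 ratio, sap1-1 minus wild-type, against distance before the last tile (kb). Each grey point is 1 of the 307 tiles and each red bar the median of a 20 kb bin, from -0.52 (80 to 100 kb) to -1.21 (20 to 40 kb). The dashed line marks 2-fold lower in sap1-1, past which 138 tiles lie.

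Inward of this end the strains were closer. From 100 to 200 kb before the last tile the median was -0.74 in sap1-1 and -0.60 in wild-type, a median difference of -0.12 (334 tiles). From 200 to 300 kb it was -0.37 in sap1-1 and -0.073 in wild-type, a difference of -0.26 (335 tiles). A 10 kb running median stayed at 1 or more up to the last tile from tile 4497900 in sap1-1, 12.6 kb before it. In wild-type it did so from tile 4465500, 45 kb before it. Over all tiles of the end this running median reached 1 at 16.9% in sap1-1 and 80.5% in wild-type. Its highest value lay at the same tile, 4506600, on both arrays, at 1.62 in sap1-1 and 2.38 in wild-type. Its lowest lay near pfl5 and cao2 on both, at -0.54 in sap1-1 and 0.43 in wild-type.

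BrdU-enriched regions (runs of at least 3 tiles with a smoothed ratio of 1 or more, joined across less than 1000 bp) numbered 7 on each array but were shorter in sap1-1. They covered 22.2 kb (22.2% of the span) in sap1-1 and 73.8 kb (73.9%) in wild-type. Their median length was 1.2 kb in sap1-1 (0.9 to 10.8) and 10.2 kb in wild-type (1.2 to 21.6). All 7 sap1-1 regions lay within wild-type regions, which covered most of the span. At the left end of chromosome II and the left and right ends of chromosome I all sap1-1 regions (10, 13 and 12) were likewise shared with wild-type. Here 5 of the 7 wild-type regions held at least 1 sap1-1 region. The 2 without one were a short region from 4430700 to 4431899 beyond cao2 (0.95 in sap1-1 and 1.27 in wild-type) and the region at gal7 and gal10. Region counts moved with within-array loess, which cut them into 12 in sap1-1 and 16 in wild-type, and with GC correction, which left 2 in sap1-1 and 8 in wild-type.

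The outermost wild-type region, from 4489200 to 4510799, ran from gal1 to the last tile over 21.6 kb. Its 62 tiles averaged 1.00 in sap1-1 and 2.02 in wild-type, a mean difference of -1.02 ± 0.07 (SE over tiles). Within it sap1-1 had a region of 10.8 kb, from 4498800 to 4509599, with its summit at tile 4504800 in SPBPB2B2.18, an uncharacterized protein gene (smoothed 2.53 in sap1-1 and 2.97 in wild-type). The wild-type summit lay at tile 4508700 in SPBCPT2R1.01c, another uncharacterized gene, at a smoothed 2.11 in sap1-1 and 3.11 in wild-type. The input at SPBCPT2R1.01c was higher in sap1-1 by 0.60 over its 3 tiles, and with the mean input of both arrays the gene's difference was -0.39, against -1.0 with each array's own input. Beyond that summit the strains lay further apart. The last 4 tiles, from 4509600 on, read 0.37, 0.11, -0.12 and 0.32 in sap1-1, against 2.26, 2.20, 1.62 and 1.89 in wild-type. All 4 hold repeated sequence, and over the outer 2 of them, in SPNCRNA.6638, the input was higher in sap1-1 by 0.43.

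The region with the most negative difference ran from 4463100 to 4483799, 20.7 kb from the end of say1 past pan5. Its 68 tiles averaged 0.078 in sap1-1 and 1.52 in wild-type, a mean difference of -1.44 ± 0.10, and 66 of them were lower in sap1-1. Its wild-type summit, at tile 4470300 between SPBPB2B2.05 and SPBPB2B2.06c, stood at 1.48 in sap1-1 and 2.66 in wild-type. Further summits of wild-type at 4475400 and 4479600 stood at 0.58 and 1.09 in sap1-1, against 2.39 and 2.46 in wild-type. In sap1-1 a single enriched region of 1.2 kb, from 4478700 to 4479899, was called inside it. The small region at gal7 and gal10, from 4485000 to 4487399, averaged 0.39 in sap1-1 and 1.55 in wild-type (difference -1.17 ± 0.13). This region, the one from 4463100 and the outermost one were the 3 whose mean was 2-fold or more lower in sap1-1, a count that was 5 with centring on the mode and 0 with within-array loess.

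The highest point of the end lay at the same tile in both strains and differed there by -0.22 (smoothed), while its flanks differed more. This was tile 4442400, between SPNCRNA.117 and ecl3, a gene of a family named for extending chronological lifespan. The 3 tiles from 4442100 on read 3.04, 3.11 and 3.18 in sap1-1, against 3.47, 3.31 and 3.22 in wild-type. Within 1 kb of the summit the mean of 7 tiles was 2.46 in sap1-1 and 2.82 in wild-type. At 2 to 5 kb away the mean of 20 tiles was 0.66 in sap1-1 and 1.56 in wild-type. The wild-type region around this summit ran 13.8 kb, from 4435200 to 4448999, and the sap1-1 region 5.1 kb, from 4439400 to 4444499. Over the wild-type region the mean difference was -0.91 ± 0.10. Toward the chromosome's middle, a lesser wild-type summit at 4437900 stood at 0.89 in sap1-1 and 2.16 in wild-type.

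The remaining regions differed less. From 4451700 to 4461899, around fub2 and nrg1, the mean was 0.74 in sap1-1 and 1.37 in wild-type (difference -0.63 ± 0.16, and -0.30 with within-array loess). At its summit, tile 4457700, the smoothed values were 1.48 in sap1-1 and 1.87 in wild-type. Within it, sap1-1 reached a smoothed 1.99 at tile 4453500, where wild-type had 1.73. In this short interval 2 of 4 tiles had a higher ratio in sap1-1. At tile 4453200 Cy5 was lower in sap1-1 (401, against 663 in wild-type), as was Cy3 (99.7, against 211). At tile 4453500 Cy5 was higher in sap1-1 (659, against 442). The innermost region, from 4412100 to 4415999 at SPBC1289.14 (an adducin), averaged 1.07 in sap1-1 and 1.28 in wild-type (difference -0.21 ± 0.18, and -0.019 with the mean input of both arrays). Of smoothed summits of at least 2 that stood 3 kb or more apart, sap1-1 had 4 and wild-type had 9, and all 4 of sap1-1 fell on the same tiles as wild-type summits. They were the one near ecl3 and those at 4501800, 4504800 and 4508700 in the outer 10 kb.

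Stretches in which the smoothed difference was -1 or below numbered 10 and covered 48.9 kb, or 48.9% of the span. No like coverage is given here for the other ends or for all chromosomes. For single tiles, the share 2-fold lower was 45.0% here and 17.1% over all chromosomes. It was 54.9%, 52.9% and 33.2% at the other ends of chromosomes I and II, so such a share was not particular to this end. Of the 10 stretches, 2 were long. One of 15.6 kb, from 4479600 to 4495199, held pan5, gal7, tgd1, gal10, gal1 and SPBPB2B2.14c and averaged 0.20 in sap1-1 and 1.48 in wild-type. The other of 15.0 kb, from 4463400 to 4478399, reached its extreme of -2.99 (smoothed) at tile 4476900, beside SPBPB2B2.07c. There 2 neighbouring tiles, 4476900 and 4477200, read -1.67 and -2.71 in sap1-1, against 1.91 and 1.35 in wild-type. Tile 4477200 had the most negative difference of the end, -4.06, with a Cy5 signal of 33.9 in sap1-1 and 508 in wild-type and a Cy3 signal of 227 and 223. Such low values were local. At fub2 the sap1-1 array read -2.42 at tile 4455600 and 2.65 at the next tile, against 0.39 and 1.63 in wild-type.

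Genes were described by the mean of the tiles whose centres lie in them, for genes with at least 2 such tiles. All 25 protein-coding genes of the end had a lower mean in sap1-1, against 59.5% of all protein-coding genes of the chromosomes. By 2-fold or more, 15 were lower (60%), against 9.31%, and the count was 23 with centring on the mode and 7 with within-array loess. The shares over all chromosome genes under these settings are not given here. The median gene difference was -1.07 at this end and -0.15 over all 4951 chromosome genes. Neighbouring genes share regions and a few share tiles, so they are not independent.

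The galactose genes lay together in the longest of these stretches. Of the 4 genes counted with them 3 (75%) were 2-fold lower, against 60% of the 25 genes of the end. Among these 3, gal10 and tgd1 share all their tiles, so 1 measurement is counted 2 times. With within-array loess none of the 4 genes was 2-fold lower. They stood at -0.93 for gal1, -0.86 for gal10 and tgd1 and -0.54 for gal7, and with mean input gal10 and tgd1 stood at -0.97. Of the 4, gal1, gal7 and gal10 encode enzymes of the Leloir pathway. There galactokinase (gal1) phosphorylates galactose, the uridylyltransferase (gal7) moves UMP onto it, and the epimerase (gal10) turns UDP-galactose into UDP-glucose. At gal1 the 7 tiles averaged 0.13 ± 0.31 in sap1-1 and 1.39 ± 0.26 in wild-type (SD over tiles), with a range of -0.18 to 0.71 in sap1-1 and 1.07 to 1.72 in wild-type. The mean difference was -1.26 ± 0.08 (SE over tiles). At gal7 the 5 tiles averaged 0.18 ± 0.79 in sap1-1 and 1.12 ± 0.44 in wild-type (difference -0.94 ± 0.29). The 11 tiles of gal10, shared with tgd1 on the other strand (a nucleotide-sugar 4,6-dehydratase), averaged 0.077 ± 0.62 in sap1-1 and 1.15 ± 0.43 in wild-type, with a difference of -1.07 ± 0.13. Every tile of these genes was lower in sap1-1. The highest wild-type tile here, 4485600 in the gap between gal7 and gal10, read 1.03 in sap1-1 and 2.24 in wild-type.

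The phosphate genes differed less. Fission yeast takes up phosphate through the transporter pho84 and frees it outside the cell with the acid phosphatase pho1, and the long non-coding RNAs prt2 and nc-pho1 repress these genes from upstream. At pho84 the 7 tiles averaged 0.73 ± 0.31 in sap1-1 and 1.40 ± 0.21 in wild-type, a difference of -0.67 ± 0.07. At pho1 the 5 tiles averaged 0.28 ± 0.43 in sap1-1 and 0.46 ± 0.12 in wild-type. The difference of -0.18 ± 0.16 (SE over tiles) was smaller than its SD of 0.35 over the tiles, as it also was at cao2 and say1. The locus of prt2 (12 tiles) averaged 0.60 in sap1-1 and 1.41 in wild-type (difference -0.81), and that of nc-pho1 (9 tiles, which take in those of pho1) 0.20 and 0.88 (difference -0.69). These are levels of newly made DNA at the loci, not of transcripts.

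Of the 3 genes annotated as transporters none was 2-fold lower, where 60% of the 25 genes of the end were. Beside pho84 they were nrg1, an amino-acid permease gene (0.42 in sap1-1 and 1.14 in wild-type, difference -0.72 ± 0.15), and SPBPB2B2.16c, of the major facilitator family (1.30 and 1.80, difference -0.51 ± 0.12). The last value was -0.16 with within-array loess and -0.28 divided by the slope of the broad profiles, and loess gave -0.43 for pho84. All tiles of SPBPB2B2.16c, and of the other genes described here from SPBPB2B2.14c outward, hold sequence that recurs elsewhere in the genome, so a tile there may read more than 1 place.

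Of the 3 oxidoreductase genes 2 (66.7%) were 2-fold lower, near the 60% of the 25 genes of the end. At pan5, whose product makes pantoate on the way to vitamin B5, the 5 tiles ran from -0.52 to -0.11 in sap1-1 and from 0.63 to 1.57 in wild-type (means -0.31 and 1.16, difference -1.48 ± 0.14). The aldo/keto reductase gene SPBC8E4.04 averaged -1.28 ± 0.70 in sap1-1 and 0.28 ± 0.81 in wild-type (4 tiles, difference -1.56 ± 0.14). The copper amine oxidase gene cao2 averaged -0.13 ± 1.03 in sap1-1 and 0.49 ± 0.48 in wild-type over 8 tiles, a difference of -0.61 ± 0.27.

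Among the 6 other enzyme genes 5 (83.3%) were 2-fold lower, pho1 being the exception, against 60% of the genes of the end. With within-array loess say1 (-0.79) and SPBPB2B2.06c (-0.80) were no longer 2-fold lower. The most negative of all protein-coding genes of the end was SPBPB2B2.05, a class I glutamine amidotransferase, at -0.79 ± 0.20 in sap1-1 and 0.96 ± 0.18 in wild-type (3 tiles, difference -1.75 ± 0.15). The neighbours SPBC8E4.03, an agmatinase, and SPBC8E4.05c, a fumarate lyase, had differences of -1.56 ± 0.33 and -1.51 ± 0.48. The protein phosphatase gene SPBPB2B2.06c averaged 0.21 in sap1-1 and 1.33 in wild-type (7 tiles, difference -1.12 ± 0.07). The sterol deacetylase gene say1 averaged 0.16 ± 1.19 and 1.22 ± 0.55 (difference -1.06 ± 0.49), and the outermost of its 5 tiles read -1.36 in sap1-1 and 1.51 in wild-type.

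The gene with the least BrdU in wild-type was pfl5, which encodes a cell surface glycoprotein. Its 14 tiles averaged -0.93 ± 1.30 in sap1-1 and 0.23 ± 0.77 in wild-type (difference -1.17 ± 0.21, and -0.87 with within-array loess), and 9 of them hold repeated sequence. The lowest sap1-1 tile of the end, at -3.15, lay here.

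The 8 remaining protein-coding genes included the most labelled ones. SPBPB2B2.18 averaged 2.53 ± 0.45 in sap1-1 and 2.97 ± 0.34 in wild-type (3 tiles, difference -0.45 ± 0.06), and SPBCPT2R1.01c 2.11 ± 0.37 and 3.11 ± 0.33 (difference -1.0 ± 0.07, but -0.39 with the mean input of both arrays and -0.63 divided by the slope of the broad profiles). SPBPB2B2.14c stood at 1.03 in sap1-1 and 2.31 in wild-type (difference -1.28 ± 0.08, and -0.93 with mean input). At ecl3, 2 tiles beside the common summit, the means were 2.02 and 2.15, a difference of -0.13 ± 0.03, the least negative of the 25. When sap1-1 was divided by the slope of the broad profiles, ecl3 and SPBPB2B2.18 turned to 0.23 and 0.0011. The proteasome regulator gene fub2 had a mean difference of -1.49 ± 0.67 over 3 tiles, of which tile 4455600 differed by -2.81, and -0.82 with within-array loess.

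**Figure D3:**
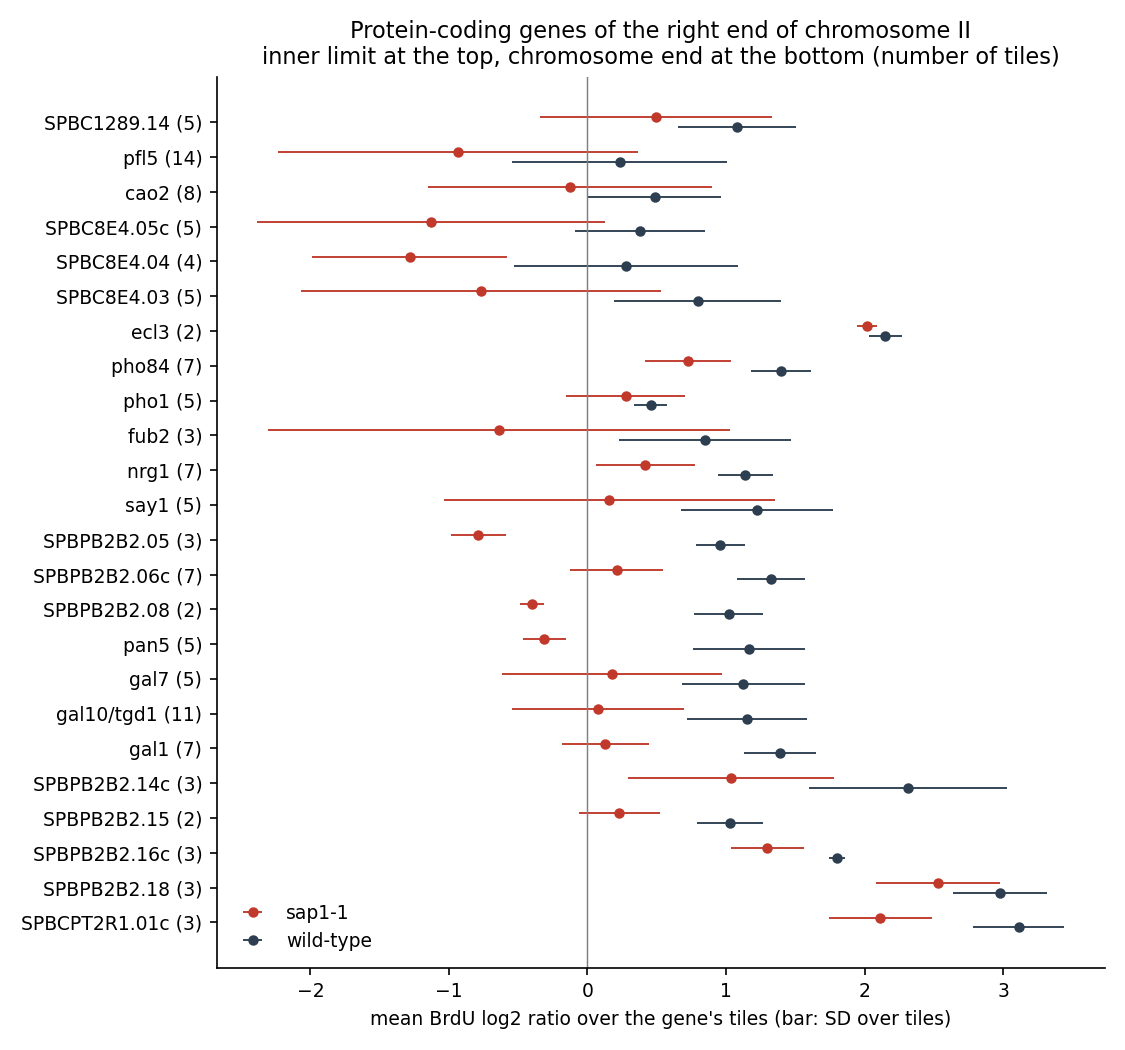
Mean BrdU log2 ratio (horizontal axis) of each protein-coding gene with at least 2 tiles, from the inner limit (top) to the chromosome end (bottom), for sap1-1 (red) and wild-type (blue), 1 array each. Bars are the SD over the gene's tiles, whose number stands in brackets, and gal10 and tgd1 share 1 row because they share their 11 tiles. Every red point lies left of its blue one, by 0.13 at ecl3 up to 1.75 at SPBPB2B2.05.

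Non-coding RNA genes were mostly lower in sap1-1 as well, but many share tiles with protein-coding genes or with each other. The tiles of SPNCRNA.1690, for example, take in all 8 of cao2, and SPNCRNA.6608 and SPNCRNA.6609 rest on the same 2 tiles. Their counts are thus not a separate measurement from those of the protein-coding genes. Of 32 with at least 2 tiles, 31 were lower in sap1-1, against 58.4% of those on all chromosomes, and 14 (43.8%) were 2-fold lower, against 11.5%. The exception was SPNCRNA.6595 near the inner limit, at 2.08 in sap1-1 and 1.46 in wild-type over 2 tiles (difference 0.62 ± 0.35). The most negative were SPNCRNA.6619 and SPNCRNA.6624, at -2.33 and -2.19, each resting on 2 or 3 tiles with 1 very low sap1-1 tile. The locus of nam3, a long non-coding RNA, averaged 0.14 in sap1-1 and 1.09 in wild-type (6 tiles, difference -0.95 ± 0.32). The 8 LTRs with a tile were all lower in sap1-1, by between -0.16 and -1.89, where 92.8% of all tiles of the end were lower. No pseudogene of the end had a tile.

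Tiles outside genes carried more BrdU than coding tiles in both strains, and both classes were lower in sap1-1. The 102 tiles outside genes had medians of 0.87 in sap1-1 and 1.79 in wild-type (median difference -0.87), and the 112 coding tiles 0.10 and 1.04 (median difference -1.02). The gap between the classes was 0.76 on either array. It turned to -0.15 in sap1-1 and -0.16 in wild-type once ratios were corrected for GC content, by subtracting the median ratio of tiles of like GC. The tiles outside genes had a median GC of 29.3% and coding tiles 38.3%. On the arms, tiles outside genes stayed above coding tiles after this correction (0.17 and -0.13 in sap1-1, 0.16 and -0.13 in wild-type). The cause of the turn to below 0 at this end was not tested. Repeated sequence made up 63 tiles (20.5%), against 1.96% on chromosome arms and 19.7% to 51.1% at the other ends of chromosomes I and II. Of the 63 tiles, 47 lay in the outermost 20 kb. Repeated tiles differed by -0.80 (1.03 in sap1-1 and 1.89 in wild-type), and the 244 others by -0.95 (0.40 and 1.27).

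How the difference went with the level of labelling depended on how level was measured, since both arrays enter the difference. In 4 groups of 76 or 77 tiles ranked by the mean of both arrays, the median differences were -1.45, -0.85, -0.76 and -0.51, lowest group first. Ranked by the wild-type ratio they were -0.97, -0.84, -0.89 and -0.90, and ranked by the sap1-1 ratio -1.66, -1.15, -0.69 and -0.37. Difference and mean level correlated with r = 0.480 across tiles. Across the 307 tiles the strains' ratios correlated with r = 0.677, and smoothed ratios with r = 0.745, as a description over tiles that share sequence and lie next to each other.

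Beside the other ends of chromosomes I and II, taken as the outer 100 kb before the outermost tile, this end had the lowest median ratio in both strains. Its medians of 0.52 in sap1-1 and 1.39 in wild-type compare with 0.56 and 1.70 at the left end of chromosome II. On chromosome I the medians were 0.78 in sap1-1 and 1.84 in wild-type at the left end, against 1.24 and 2.01 at the opposite end. The quartiles of all these ends overlap, and none of these differences could be tested. Regions of wild-type covered 73.9% of this end and 82.9% to 92.8% of the others, and regions of sap1-1 22.2% here and 17.1% to 62.8% there. The share of tiles 2-fold lower in sap1-1, 45.0% here, was 54.9% at the left end of chromosome II and 16.4% on the arms. On chromosome I it was 52.9% at the left end, and 33.2% at the opposite end. In wild-type 11 tiles of this end were below 0, against 0 to 2 at each other end, and 6 of those 11 lie in pfl5. The order of the ends in sap1-1 changed between bins. From 20 to 40 kb its median was 0.20 here, 0.35 at the left end of chromosome II, and 1.38 and 1.71 at the left and right ends of chromosome I. From 40 to 60 kb it was 0.56 here, 0.49, 0.16 and 1.34 in the same order, and from 60 to 80 kb 0.65 here, 0.045, 0.43 and 0.76.

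**Figure D4:**
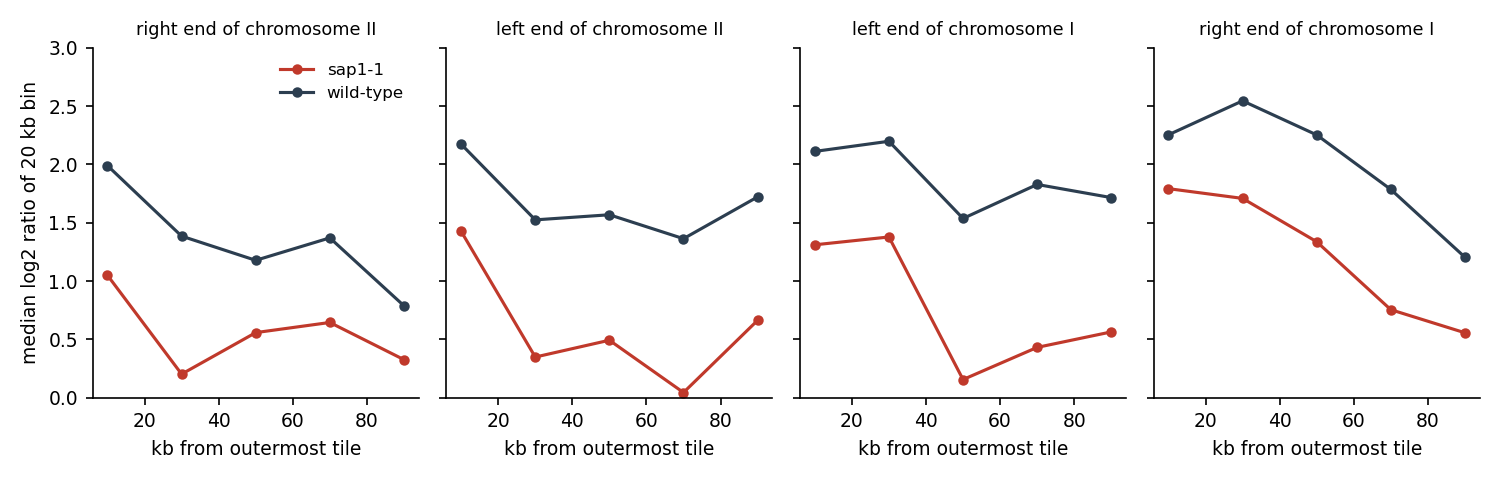
Median BrdU log2 ratio of 20 kb bins (vertical axis) against distance from the outermost tile (kb, points at bin centres), for sap1-1 (red) and wild-type (blue), 1 array each, at the right end of chromosome II and the other 3 ends of chromosomes I and II. At the right end of chromosome II the bins run from 0.20 to 1.05 in sap1-1 and from 0.79 to 1.99 in wild-type, and sap1-1 is below wild-type in every bin of every panel.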

How the data were processed

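Both arrays were 2-colour Agilent tiling arrays on 1 slide, with immunoprecipitated DNA in Cy5 and whole-cell extract DNA in Cy3, per the labels. Feature Extraction 10.7.3.1 was used with background subtraction, spatial detrending and linear dye scaling (no lowess), per the file headers. The processed signals, as deposited, are linear intensity values per spot and channel. The deposited log10 ratio of Cy5 over Cy3 intensity matched them to within 1.3e-06 on the log2 scale. Deposited median spot and background intensity values served alternatives only. The genome build of the tiles was not given in the sources used here.

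Log2 ratios were centred on the median of the 41551 non-control probes of each array, and 12 flagged spots were left out, leaving 41240 chromosome tiles. Smoothing averaged tiles within 500 bp. Genes of RefSeq ASM294v3 were placed by sliding its GC content along the input of the right arm, which gave an offset of -1800 bp (r = 0.587, against a median of 0.0024 at other offsets, and -1850 to -1750 bp in 10 blocks). No reference coordinate or sequence is printed, since the builds differ. Named are genes with a symbol, members of annotation groups, genes at region summits, and the 5 genes at each extreme of wild-type ratio and of difference. The members, lists and rules were chosen with earlier results of these data known. Repeated tiles share at least 10% of their 30-base words with other places in the reference. Alternatives were centring on the mode, within-array loess, quantile scaling, normexp background correction (limma 3.58.1, R 4.3.3), mean input, GC correction, leaving out repeated tiles, keeping flagged spots, and division by the slope of the broad profiles (0.850). Calculations ran in Python 3.11.15 with pandas 2.3.3 and were tested on simulated data. The precision is limited by the single array per strain.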

Additional observations from a re-analysis of the deposited data

How the results depend on the processing

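The median difference of this end stayed below 0 under all 11 alternatives, between -1.58 (centring on the mode) and -0.67 (within-array loess), and was -0.80 relative to the arms and -1.12 over the outer 50 kb. All 5 bins of 20 kb were lower under each of the 9 alternatives run on them. Centring on the mode took the wild-type median to 2.01, the tiles 2-fold lower to 247 and 2-fold higher to 1, the genes 2-fold lower to 23, the regions 2-fold lower to 5 and the wild-type regions to 3. It lowers the difference of all tiles of the genome alike, and no counts over all chromosomes are given under it. Within-array loess gave 7 genes and 0 regions 2-fold lower, 12 regions in sap1-1 and 16 in wild-type, and gaps between tiles outside genes and coding tiles of 1.38 in sap1-1 and 1.28 in wild-type. GC correction turned these gaps to -0.15 in sap1-1 and -0.16 in wild-type and left 2 regions in sap1-1. Division by the slope gave 6 tiles 2-fold higher and turned ecl3 to 0.23 and SPBPB2B2.18 to 0.0011. The cause of these shifts was not tested. Of 337 other values under alternatives, 274 moved by less than the spread between bins of this end, 61 moved by more and 2 changed sign. No paired analysis was possible because each strain has 1 array and no replicate numbers, and for the same reason no replicate could be left out. With 1 array per strain no spread between cultures is known, and the most negative tile had a Cy5 signal of 33.9 in sap1-1, where the median of the end was 1100.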
